A study of Mus musculus with 8 samples.

Results

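Wnt signaling at the central vein sets the gene expression of the hepatocytes around it, and 10 targets of this signaling were followed in livers of mice with and without deletion of Smo in hepatocytes. The members were taken by gene symbol: Glul, Oat, Rhbg, Slc1a2, Axin2, Rnf43, Znrf3, Lgr5, Tbx3 and Lect2. All 10 were among the 25239 symbols of the count files, and all 10 passed the filter on low counts that left 12977 genes for testing. Bulk RNA-Seq was available for 4 control and 4 Smo-KO livers, 1 from each mouse. All were adult male mice homozygous for the floxed Smo tm2Amc allele on a C57Bl6/J background, and all were fed a CDA-HFD for 6 weeks. This is a high-fat diet short of choline and restricted in amino acids that brings on steatohepatitis. At 1 week before sacrifice, control mice received AAV8-TBG-Luciferase and Smo-KO mice AAV8-TBG-Cre Recombinase by tail vein. Both groups carry the floxed allele and a viral vector. The TBG promoter is active in hepatocytes, which directs Cre to these cells, and Smo in nonparenchymal cells was not measured separately. The controls, labeled WT, are thus floxed mice without Cre, and no group without a vector or on standard chow was analysed here.

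Hepatocytes along the axis from the portal vein to the central vein divide their tasks, a pattern called zonation. Endothelial cells of the central vein and nearby sinusoids secrete Wnt2, Wnt9b and the R-spondin Rspo3. In the adjoining hepatocytes these factors stabilize β-catenin, which with TCF transcription factors drives a pericentral program that includes glutamine synthesis from ammonia. R-spondins act by binding Lgr receptors and removing the ubiquitin ligases Rnf43 and Znrf3, which otherwise clear Frizzled receptors from the cell surface. Axin2, Rnf43 and Znrf3 are themselves Wnt targets and work as negative feedback, so their mRNA is widely read as a gauge of β-catenin activity. Axin2 is a scaffold of the complex that destroys β-catenin.

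The targeted gene was checked first. Smo, the transducer of Hedgehog signaling, was 8.17, 8.49, 8.74 and 8.21 CPM in the controls against 5.67, 3.93, 4.27 and 4.37 in the knockouts, resting on 72 to 88 and 35 to 55 reads. CPM are read counts scaled by TMM to a common library size, and each series of values follows the mouse numbers 1 to 4. All 4 Smo-KO livers were below all 4 control livers, at 54.3% of the control mean (exact permutation test, two-sided p = 0.0286, the smallest that 4 against 4 allow). The counts are per gene and from whole liver, and whether the reads left in Smo-KO livers came from other cells or from the excised allele was not tested. The fit across all genes gave a log2 fold change of -0.88 (standard error 0.16, adjusted p 0.0957 with edgeR).

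With edgeR's quasi-likelihood test none of the 10 Wnt targets reached an adjusted p under 0.05, and neither did any of the 12977 genes tested (0%). With DESeq2's Wald test, 163 of 11967 genes with an adjusted p passed (1.36%), none of them a Wnt target. At an unadjusted p under 0.05 the count was 2 of 10, Slc1a2 and Rhbg, beside 13.8% of all genes tested, so a share of this size among 10 genes is near the background. Both were higher in Smo-KO livers, where 6.70% of all genes were called in that direction. The groups did not overlap in 1 of the 10, Slc1a2, beside 7.37% of all genes tested and 3.03% for those higher in Smo-KO livers. The median log2 fold change of the 10 was 0.028, with 6 higher and 4 lower, and that of all genes was -0.00084. The genes that feed back on Wnt signaling had log2 fold changes within 0.1 of 0. When 1 mouse was left out, Rnf43 reached 0.20 and Znrf3 -0.13. Those that handle ammonia, glutamate and glutamine ranged from -0.32 to 0.55, with Glul at 0.087. The difference between these sets of genes was not tested.

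**Figure D1:**
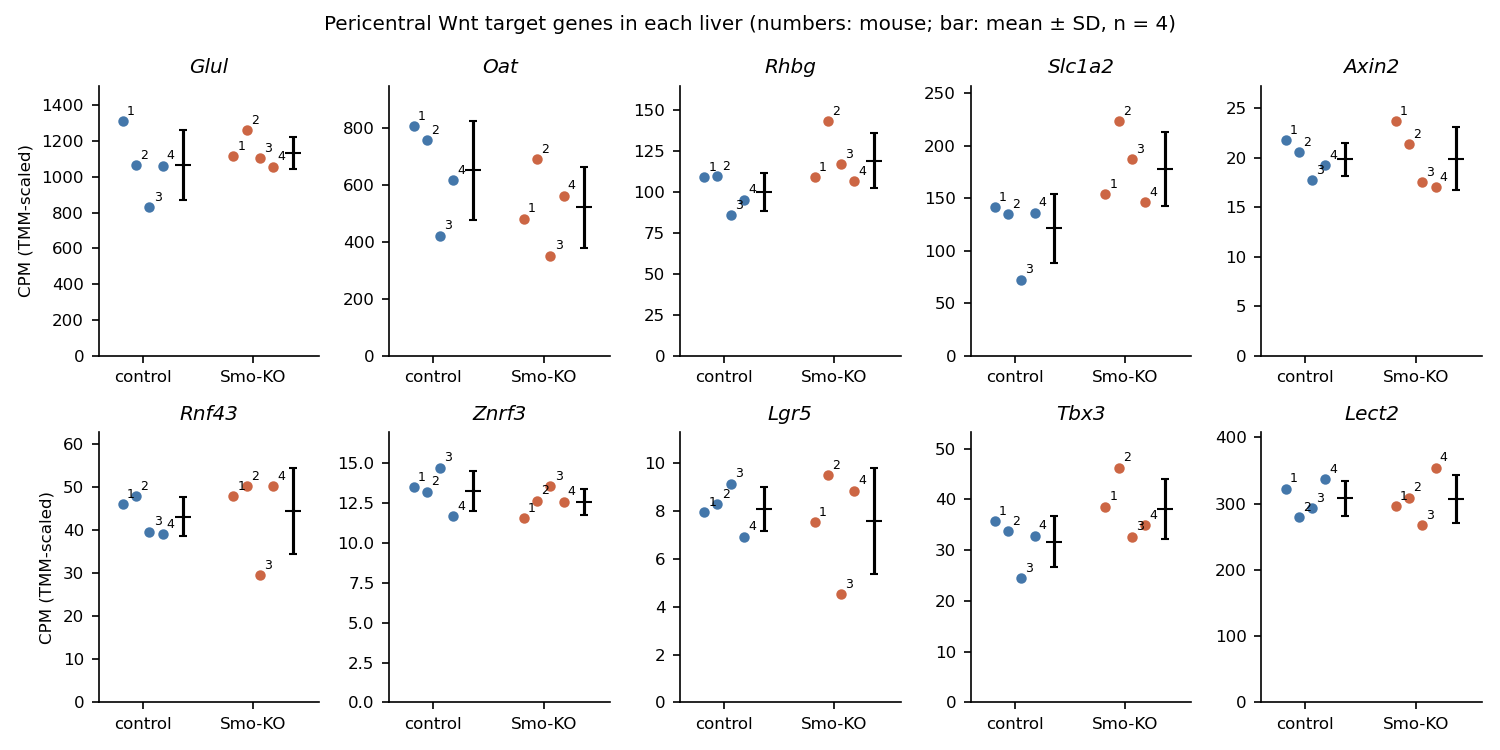
TMM-scaled CPM (vertical axes, linear, starting at 0) of the 10 Wnt target genes in each of 4 control (blue) and 4 Smo-KO (orange) livers, with the mouse number beside each point and the group mean ± SD (n = 4) as a bar. Slc1a2 is the 1 gene in which all Smo-KO points, from 146 to 223 CPM, lie above all control points, from 72.7 to 142 CPM.

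Levels between genes can be compared only per length, and CPM were therefore also divided by the kilobases of exon that GENCODE M21 assigns to each gene, all isoforms merged. On this scale Lect2 (335 ± 28.6 CPM per kilobase, SD, n = 4), Glul (321 ± 58.9) and Oat (275 ± 73.0) led in control livers, and their ranges overlapped. Rhbg followed at 51.7 ± 5.97 and Slc1a2 at 9.26 ± 2.49. The range of Slc1a2 in control livers overlapped that of Rnf43 (6.58 ± 0.676). Tbx3 (4.78 ± 0.752) and Axin2 (3.61 ± 0.310) came next with overlapping ranges, and Znrf3 (1.68 ± 0.158) and Lgr5 (0.786 ± 0.0894) were lowest, each apart from its neighbors. The order of the genes in Smo-KO livers differed only in Glul (341 ± 26.3) and Lect2 (334 ± 39.3), whose ranges overlapped there as well. The merged exons of Slc1a2 span 13133 bases and those of Lect2 919 bases, and a liver that uses shorter isoforms would have a higher value than this scale gives.

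The 4 members that handle nitrogen were examined first. Slc1a2 encodes the glutamate transporter GLT-1, which pericentral hepatocytes use to take up glutamate for glutamine synthesis (chr2:102658659-102790784, GRCm38, plus strand). It was 142, 135, 72.7 and 137 CPM in the controls against 154, 223, 188 and 146 in the knockouts. Control mouse 3 was far below the other controls and Smo-KO mouse 2 was highest, while Smo-KO mouse 4 stood closest to the controls, so the gap between groups was small. The means were 122 ± 32.7 and 178 ± 35.2 CPM (SD, n = 4 each), which gave 0.55 on the log2 scale (standard error 0.19, 95% interval 0.13 to 0.97, adjusted p 0.247 with edgeR). Without control mouse 3 the log2 fold change was 0.37 (adjusted p 0.414), and without Smo-KO mouse 2 it was 0.42 (adjusted p 0.389).

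Rhbg, an ammonia transporter of the pericentral hepatocyte membrane (chr3:88242874-88254709, minus strand), was 109, 109.7, 85.9 and 95.5 CPM in the controls against 109, 143, 117 and 107 in the knockouts. Smo-KO mouse 2 was again highest and control mouse 3 lowest, and the groups overlapped, with Smo-KO mice 1 and 4 inside the control range. The log2 fold change was 0.25 (standard error 0.12, 95% interval 0.0024 to 0.50, adjusted p 0.355), and the fit without Smo-KO mouse 2 gave 0.15 and that without control mouse 3 gave 0.19. Its unadjusted p was under 0.05 in 4 of the 8 fits that left out a mouse. Another annotated gene on the same strand, Gm38392, covers 61.4% of the exonic bases of Rhbg. It is not a symbol of the count files, and whether reads from it were counted for Rhbg was not tested.

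Glul encodes glutamine synthetase, which joins ammonia to glutamate in the innermost ring of hepatocytes around the central vein and is the classic marker of that ring (chr1:153899944-153909723, plus strand). It was 1309.6, 1066, 829.9 and 1062 CPM in the controls against 1114, 1259, 1103 and 1057 in the knockouts. The 4 Smo-KO values all lay within the range of the controls, whose highest and lowest livers were mice 1 and 3. Its log2 fold change was 0.087 (standard error 0.12, 95% interval -0.18 to 0.36, adjusted p 0.796), which on the linear scale is an interval from 0.881-fold to 1.28-fold. Without control mouse 3 it was -0.012.

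Oat, the ornithine aminotransferase of mitochondria, which makes glutamate from ornithine, was the member with the lowest log2 fold change (chr7:132557478-132576398, minus strand). It was 805, 757, 421 and 617 CPM in the controls against 481, 691, 351 and 561 in the knockouts. Mouse 3 was lowest in each group and the groups overlapped broadly. Between the groups the log2 fold change was -0.32 (standard error 0.21, 95% interval -0.77 to 0.14, adjusted p 0.527). Leaving out 1 mouse moved it between -0.48, without Smo-KO mouse 2, and -0.17, without Smo-KO mouse 3, a wider range than for any other member. In Smo-KO mouse 3, Oat was the lowest of all 8 livers while Slc1a2 was the second highest, so within this liver members of 1 zone stood at opposite ends.

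**Figure D2:**
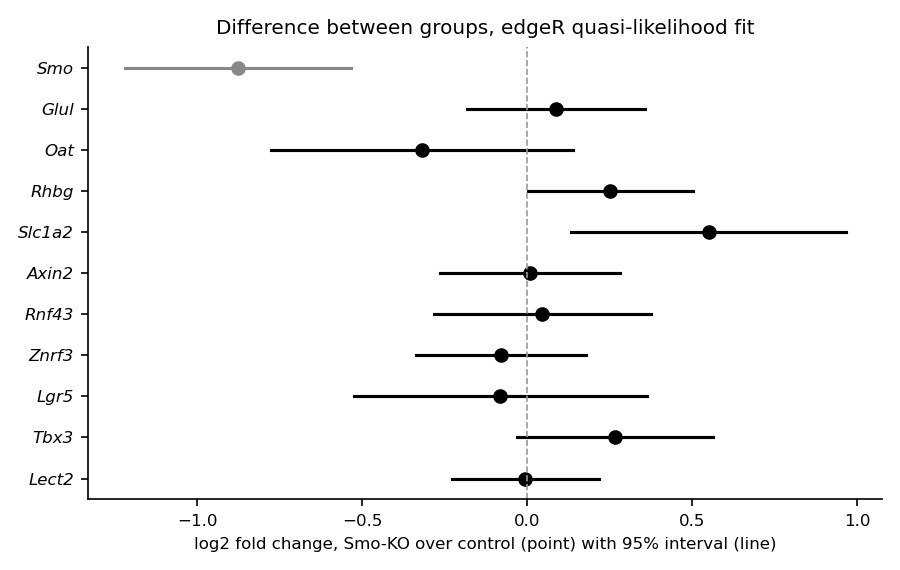
Log2 fold change of Smo-KO over control livers (horizontal axis) for the targeted gene Smo (grey) and the 10 Wnt target genes (black), as points with 95% intervals from edgeR's quasi-likelihood fit of 4 against 4 livers. The intervals of Axin2, Rnf43, Znrf3, Lgr5, Lect2, Glul, Oat and Tbx3 include 0, that of Rhbg starts just above it, that of Slc1a2 runs from 0.13 to 0.97, and that of Smo lies below 0.

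For the feedback genes and the receptor, the groups overlapped and every interval included 0. Axin2 (chr11:108920349-108950783, plus strand) was 21.8, 20.6, 17.8 and 19.3 CPM in the controls against 23.7, 21.4, 17.6 and 17.1 in the knockouts. Smo-KO mice 1 and 2 were high and mice 3 and 4 low, and the Smo-KO values spanned the whole control range. Smo-KO over control, the log2 fold change was 0.0087 (standard error 0.13, 95% interval -0.27 to 0.28, adjusted p 0.985), so that the interval runs from 0.832-fold to 1.22-fold. Rnf43 (chr11:87662722-87735539, plus strand) was 46.0, 47.8, 39.6 and 39.1 CPM in the controls against 47.9, 50.2, 29.5 and 50.2 in the knockouts. Smo-KO mouse 3 stood alone below all other livers, and the other 3 Smo-KO livers were at or above the highest control. The log2 fold change was 0.046 (95% interval -0.28 to 0.38, adjusted p 0.922), and 0.20 without Smo-KO mouse 3 (adjusted p 0.591).

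Znrf3, the homolog of Rnf43 (chr11:5276324-5444847, minus strand), was 13.5, 13.2, 14.7 and 11.7 CPM in the controls against 11.5, 12.7, 13.5 and 12.6 in the knockouts. Control mouse 3, the lowest control in 6 of the other 9 genes, was the highest of all livers for Znrf3. The log2 fold change was -0.078 (95% interval -0.34 to 0.18, adjusted p 0.809), and leaving out 1 mouse moved it between -0.13, without control mouse 4, and -0.020, without control mouse 3. Lgr5, an R-spondin receptor of the innermost pericentral hepatocytes (chr10:115450311-115587780, minus strand), was 7.94, 8.28, 9.14 and 6.92 CPM in the controls against 7.53, 9.49, 4.51 and 8.85 in the knockouts, from 70 to 92 and 37 to 87 reads. Smo-KO mouse 3 was again far below the rest, with 37 reads, and the other livers of both groups were intermixed. The log2 fold change was -0.082 (95% interval -0.52 to 0.36, adjusted p 0.895), and 0.094 without that mouse.

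Tbx3, a T-box transcription factor that depends on β-catenin in the liver (chr5:119670669-119684724, plus strand), was 35.7, 33.8, 24.4 and 32.8 CPM in the controls against 38.6, 46.2, 32.7 and 34.9 in the knockouts. Control mouse 3 was lowest and Smo-KO mouse 2 highest, and the other 6 livers of both groups lay between 32.7 and 38.6 CPM. Its log2 fold change was 0.27 (standard error 0.14, 95% interval -0.03 to 0.56, adjusted p 0.406), and it was 0.16 without control mouse 3 and 0.16 without Smo-KO mouse 2. Lect2, a protein that hepatocytes secrete into the blood (chr13:56542464-56548502, minus strand), was 323, 280.0, 293 and 337 CPM in the controls against 297, 309, 267 and 354 in the knockouts. The groups were intermixed, with a log2 fold change of -0.0059 (95% interval -0.23 to 0.22, adjusted p 0.988), the narrowest interval of the 10.

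The promoters of these genes were searched for the letters CTTTGAT, the core bound by TCF and LEF factors, on both strands. RefSeq windows from 250 bases before to 50 bases after a start site (GRCm38.p6) were at hand for 6 of the 10 genes, 7 windows in all, Rnf43 having a pair of starts. The letters stood in the windows of Slc1a2 and Lect2 and in 3.73% of all 32851 windows, and the variants CTTTGAA and CTTTGTT, in 5.14% and 5.85% of all windows, stood in no member. The windows of Slc1a2 and Lect2 are shown because both hold the core while the first had the largest and the second the smallest difference between groups, and that of Axin2 as a feedback gene without the core, which the windows of Rnf43, Glul and Oat lack as well. Capitals mark the core, which reads ATCAAAG on the strand shown, 5′ to 3′ toward the gene.
Slc1a2, chr2:102706188-102706487 (+ strand): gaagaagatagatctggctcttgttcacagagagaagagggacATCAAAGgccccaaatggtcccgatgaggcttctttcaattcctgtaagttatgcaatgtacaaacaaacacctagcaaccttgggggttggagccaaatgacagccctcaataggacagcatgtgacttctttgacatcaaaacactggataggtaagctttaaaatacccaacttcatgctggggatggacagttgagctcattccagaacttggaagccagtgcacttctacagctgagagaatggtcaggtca
Lect2, chr13:56548489-56548788 (- strand): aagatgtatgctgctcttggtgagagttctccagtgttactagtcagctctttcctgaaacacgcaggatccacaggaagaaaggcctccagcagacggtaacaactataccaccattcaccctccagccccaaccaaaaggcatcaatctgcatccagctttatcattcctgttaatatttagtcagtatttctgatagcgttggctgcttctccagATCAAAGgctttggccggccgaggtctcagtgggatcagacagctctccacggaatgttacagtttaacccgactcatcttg
Axin2, chr11:108920099-108920398 (+ strand): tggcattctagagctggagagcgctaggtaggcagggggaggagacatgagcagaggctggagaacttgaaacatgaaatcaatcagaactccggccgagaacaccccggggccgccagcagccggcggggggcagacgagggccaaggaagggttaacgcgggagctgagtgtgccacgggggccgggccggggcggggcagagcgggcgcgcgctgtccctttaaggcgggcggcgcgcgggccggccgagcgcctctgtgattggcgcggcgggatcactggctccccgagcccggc
The core begins 207 bases before the RefSeq start in Slc1a2 and 32 bases before it in Lect2. The RefSeq start of Slc1a2 lies 47779 bases downstream of the first base that GENCODE M21 gives to the gene, and the counts do not show which start these livers use. A match is a description of letters and not of binding, and regulatory sites beyond these windows were not searched.

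**Figure D3:**
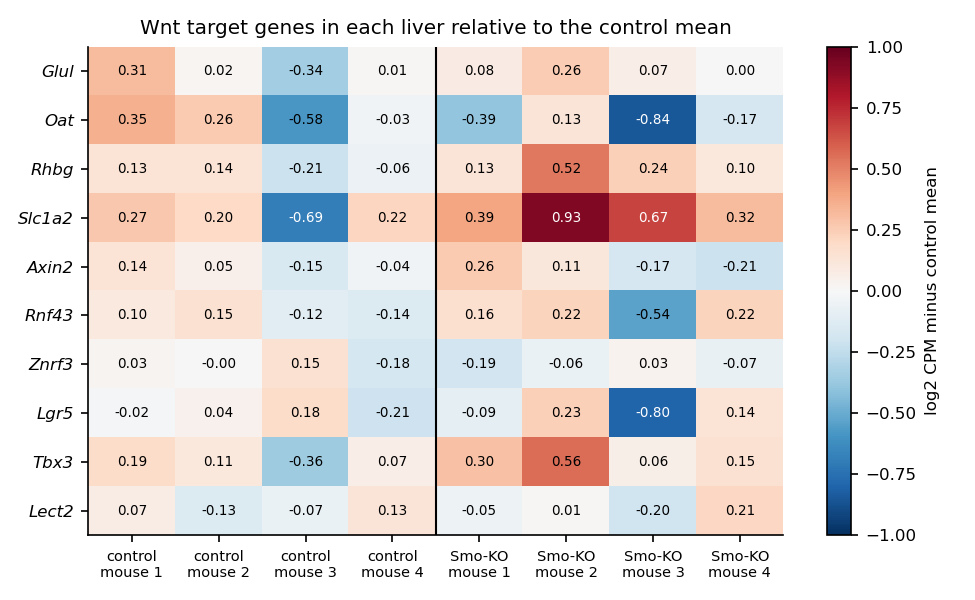
Log2 CPM (prior count 2) of each Wnt target gene in each liver minus the mean of the 4 control livers, written in the cells and shown as color from blue (lower) to red (higher), with the groups split by a line. Control mouse 3 is below the control mean in 8 of the 10 genes, and Smo-KO mouse 3 combines -0.84 for Oat and -0.80 for Lgr5 with 0.67 for Slc1a2.

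Single livers weighed on several members at once. Control mouse 3 had the lowest value of its group in 6 of the 10 genes, namely Glul, Oat, Rhbg, Slc1a2, Axin2 and Tbx3, and Smo-KO mouse 2 the highest of its group in 6, namely Glul, Oat, Rhbg, Slc1a2, Lgr5 and Tbx3. Smo-KO mouse 3, whose library was the shallowest with 8203299 reads on genes where the other 7 had 9177277 to 9999732, was lowest of its group in 5 genes. The spread between mice of 1 group, as SD over mean, ran from 8.52% for Lect2 to 26.9% for Slc1a2 in control livers and from 6.47% for Znrf3 to 29.1% for Lgr5 in Smo-KO livers. The difference between groups in reads on genes had an exact permutation p of 0.257 (two-sided).

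The members were therefore compared with each other over the 8 livers, as a description that shares its libraries and depth. The mean of the 10 standardized log2 CPM was lowest in control mouse 3 (-0.80) and Smo-KO mouse 3 (-0.66) and highest in Smo-KO mouse 2 (0.89). Of the members, Tbx3 followed this mean most closely (Pearson r 0.86, Spearman rho 0.86, 8 livers) and Znrf3 went against it (r -0.36, rho -0.31). On residuals from the group means, Oat followed most closely (r 0.97, rho 0.98), ahead of Tbx3 (0.94, 0.90), and Znrf3 had -0.31 and -0.21. Each gene is part of the mean. Among the 12967 other genes tested, those most like the mean included Tmem106c (r 0.95, rho 0.93), Klc4 (0.94, 0.88), Lhx6 (0.94, 0.81), Notum (0.94, 0.90) and Hlcs (0.93, 0.90). With the group means removed, the 6 most like it were Slc35a2 (r 0.99, rho 0.98), Tysnd1 (0.98, 0.98), Spsb4 (0.98, 0.93), Car5a (0.97, 0.95), Mccc1 (0.96, 0.95) and Notum (0.96, 0.90). Notum, a secreted enzyme that inactivates Wnt ligands and is a β-catenin target in pericentral hepatocytes, was the gene on both lists. It was 67.3, 59.9, 40.8 and 57.0 CPM in the controls against 62.6, 83.8, 53.3 and 58.6 in the knockouts. Control mouse 3 was lowest and Smo-KO mouse 2 highest, as the choice of Notum by its likeness to the members' mean favors, and the groups overlapped (0.20 on the log2 scale, adjusted p 0.613 with edgeR).

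The genes that send and relay the signal were examined as a Wnt pathway list of 67 symbols, of which 42 were tested. At an unadjusted p under 0.05, 1 was higher in the knockouts and 2 were lower, beside 6.70% and 7.15% of all genes tested, and the median log2 fold change was -0.077. Of 12 ligands and R-spondins, 6 had enough reads to be tested. Wnt2 was 4.54, 2.52, 4.27 and 4.45 CPM in the controls against 4.74, 1.96, 3.78 and 3.30 in the knockouts, and Rspo3 was 10.2, 7.13, 12.4 and 10.9 and 11.5, 5.89, 8.29 and 11.0 CPM. For both, mouse 2 was lowest in each group and the groups overlapped, with log2 fold changes of -0.19 (95% interval -0.78 to 0.40, adjusted p 0.794) and -0.14 (-0.62 to 0.33, 0.809). Wnt9b, with at most 15 reads in any liver, was 1.70, 1.36, 0.894 and 1.29 CPM in the controls against 1.55, 0, 0.976 and 1.39 in the knockouts. The 0 reads of Smo-KO mouse 2 allow up to 0.327 CPM by counting error. That liver thus had the lowest Wnt2, Wnt9b and Rspo3 of all 8 and at the same time the highest Rhbg, Slc1a2, Tbx3 and Lgr5. Some of these ranks rest on few reads. Wnt2 had 18 reads there and 24 in control mouse 2, and Rspo3 had 54 and 68. Lgr5 had 87 reads there (9.49 CPM) and 92 in control mouse 3 (9.14 CPM). Whether such ranks exceed counting error was not tested.

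Wnt4 was the ligand past the unadjusted threshold. It was 6.35, 9.44, 6.06 and 6.63 CPM in the controls against 8.14, 8.94, 10.9 and 15.7 in the knockouts, and control mouse 2 lay inside the Smo-KO range (log2 fold change 0.61, standard error 0.22, adjusted p 0.253). Wnt5a (-0.44) and Wnt5b (-0.26) had adjusted p-values of 0.365 and 0.423. Wnt2b, Wnt9a, Wnt11, Rspo1 and Rspo2 had too few reads to be tested, and Rspo4 had none in any liver.

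Among receptors, Lrp5, a co-receptor of Frizzled, was 109.5 ± 10.5 CPM in control and 85.4 ± 21.4 CPM in Smo-KO livers (log2 fold change -0.36, adjusted p 0.335), with overlapping groups. Lgr4, the R-spondin receptor found throughout the lobule, had a log2 fold change of 0.17 (adjusted p 0.543). In the whole list, 3 of the 42 genes tested did not overlap, all lower in Smo-KO livers, beside 4.34% of all genes tested. All 3 were among the 11 genes of the Dishevelled proteins and the destruction complex. Axin1, the scaffold that Axin2 resembles, was 38.9, 35.3, 36.9 and 30.7 CPM in the controls against 28.9, 26.8, 27.3 and 28.3 in the knockouts. The Smo-KO livers lay close together and below the controls, of which mouse 4 came nearest (log2 fold change -0.35, standard error 0.10, adjusted p 0.175). The others, named after their values were seen, were Dvl3 (-0.18, adjusted p 0.390) and the kinase Gsk3b (-0.17, adjusted p 0.407). Ctnnb1, which encodes β-catenin, had a log2 fold change of -0.13 (95% interval -0.39 to 0.13, adjusted p 0.664), and Dvl1 0.16 (adjusted p 0.484). Of the 9 β-catenin and TCF genes, 7 were tested and none was past the unadjusted threshold, nor were any of the 4 inhibitors or 4 broader targets tested, the former including Notum.

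**Figure D4:**
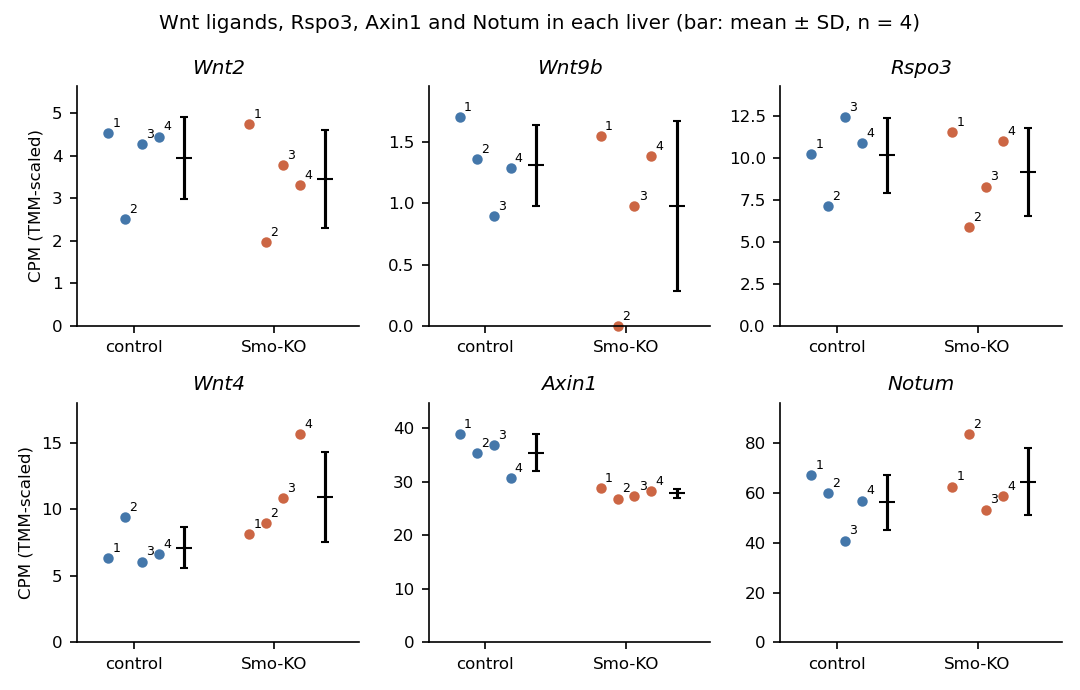
TMM-scaled CPM (vertical axes, linear, starting at 0) of Wnt2, Wnt9b, Rspo3, Wnt4, Axin1 and Notum in each control (blue) and Smo-KO (orange) liver, with mouse numbers and the mean ± SD (n = 4) as a bar. Smo-KO mouse 2 is lowest for Wnt2, Wnt9b and Rspo3, and Axin1 is the plotted gene in which the groups do not overlap.

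Reads from whole liver cannot tell fewer cells of a type from less RNA per cell, so markers of other cells were summed beside these values. The 7 endothelial markers, of which Clec4g had the most CPM and none was near 0, summed to 179, 171, 206 and 209.9 CPM in the controls against 219, 105, 136 and 177 in the knockouts. Smo-KO mouse 2 was lowest here too. The difference between the group means of this sum had a two-sided p of 0.343 in the exact permutation test. All 7 had a negative log2 fold change, as did 6507 of all 12977 genes tested. Of the 7, Pecam1 (-0.50, adjusted p 0.292) was past the unadjusted threshold, beside 7.15% of all genes tested in that direction. The sum of Kit, Thbd, Cdh13, Wnt2, Wnt9b and Rspo3, markers of pericentral endothelium, was 29.7 ± 2.80 CPM in the controls and 27.5 ± 7.17 CPM in the knockouts (mean ± SD, n = 4, exact permutation p = 0.571). The 6 hepatocyte markers, with the most reads on Alb and Trf, summed to a mean of 37281 CPM in the controls and 35408 CPM in the knockouts (exact permutation p = 0.200), and the lowest of them, Serpina1e, was still 6.89 CPM in the controls and 7.79 CPM in the knockouts. The 6 lymphocyte markers, with the most CPM on Il2rb in the controls and on Cd8a in the knockouts, summed to 39.4, 42.9, 38.7 and 49.8 CPM in the controls against 20.1, 16.5, 27.3 and 29.8 in the knockouts, without overlap (exact permutation p = 0.0286, Benjamini-Hochberg adjusted over the 9 sums compared 0.257). Of these markers, 5 (Cd3e, Cd3g, Cd4, Cd8a and Il2rb) were lower at an unadjusted p under 0.05, beside 7.15% of all genes tested. The remaining one, Cd79a, was 2.25 CPM in the controls and 2.13 CPM in the knockouts (log2 fold change -0.090, adjusted p 0.916 with edgeR). The marker lists were chosen with earlier results of these data known, so neither this share nor the sum is independent support. The sums of cholangiocyte (119% of control), stellate (96.4%), macrophage (99.4%) and neutrophil markers (90.7%) had exact permutation p-values of 0.429, 0.743, 0.857 and 0.771, with the most CPM on Spp1, Dcn, Cd5l and S100a9, and Ly6g, a neutrophil marker, had no reads in any liver. Spp1 alone made up 126 of 148 CPM of the cholangiocyte sum in the controls and 154 of 177 CPM in the knockouts. Of the 5 cholangiocyte markers, 4 were higher and 1, Sox9, was lower (log2 fold change -0.19). Within the cholangiocyte, stellate, macrophage and neutrophil sums, Col1a1 (-0.36, adjusted p 0.248) and Trem2 (0.75, adjusted p 0.0957) were past the unadjusted threshold. With DESeq2, Trem2 (adjusted p 0.000156), Il2rb (0.000362), Cd8a (0.0143) and Cd3e (0.0399) passed the adjusted threshold, beside 1.36% of all genes with an adjusted p. With edgeR, Il2rb, Cd8a and Cd3e had adjusted p-values of 0.0957, 0.116 and 0.175. The groups overlapped in none of these 4, where 7.37% of all genes tested did not overlap. This is no separate support, because the 4 were picked by their difference in the same livers. The part of any of these cells in the values of the Wnt targets was not tested.

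Other pericentral hepatocyte genes were followed as a list of 27, all tested, with none of the 10 members in it. At an unadjusted p under 0.05, 2 were higher in the knockouts and 0 lower, beside 6.70% and 7.15% of all genes tested, and the median log2 fold change was 0.090, with 17 higher and 10 lower. The 2 were Nr1i3, which encodes the xenobiotic receptor CAR (log2 fold change 0.44, standard error 0.17, adjusted p 0.288), and the cytochrome P450 Cyp2c37 (0.39, adjusted p 0.342), which has close paralogs between which reads could be split. Nr1i3 was 172, 135, 84.8 and 158 CPM in the controls against 176, 173, 185 and 209 in the knockouts, without overlap, and control mouse 3 was again lowest. Cyp2e1, first of the list in CPM not scaled by length and a marker of the wider pericentral zone, was 4482, 3594, 2768 and 3689 CPM in the controls against 4052, 4618, 4382 and 4055 in the knockouts. Its groups overlapped through control mouse 1 (0.24, adjusted p 0.439). Gstm1, the next in CPM and 1 of a family of similar genes, had a log2 fold change of -0.17 (adjusted p 0.537). Per kilobase of exon the mean of Gstm1 stood above that of Cyp2e1, with overlapping ranges in both groups. The means were 2333 ± 328 against 1684 ± 325 CPM per kilobase in the controls (SD, n = 4). In the knockouts they were 2081 ± 154 against 1982 ± 127. Control mouse 3 had the lowest value of its group in 15 of the 27 genes.

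At the opposite end of the lobule, 22 of 23 periportal genes were tested. The exception, Ass1, an abundant urea cycle enzyme, is listed at 0 in 7 libraries and at 1 read in Smo-KO mouse 3, and was not used. At an unadjusted p under 0.05, 2 were higher and 2 lower, again beside 6.70% and 7.15% of all genes tested, and the median log2 fold change was -0.19, with 6 higher and 16 lower. The lower ones were Aldh1b1, an aldehyde dehydrogenase of mitochondria (-0.64, standard error 0.17, adjusted p 0.165 in edgeR's and 0.0337 in DESeq2's test), and Cps1, which feeds ammonia into the urea cycle. Cps1 was 954, 846, 923 and 952 CPM in the controls against 754, 828, 603 and 746 in the knockouts. All 4 Smo-KO livers were below the controls, Smo-KO mouse 3 by the most (-0.33, standard error 0.10, adjusted p 0.218). The higher ones were Igf1 (0.47, adjusted p 0.281) and Pigr, the receptor that carries IgA into bile (0.20, adjusted p 0.336), and Apoa4, first of the list in CPM, had -0.14 (adjusted p 0.794). The groups did not overlap in 1 gene higher in Smo-KO livers, Pigr, and in 1 lower, Cps1. Of all genes tested, 3.03% and 4.34% did not overlap in these directions.

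**Figure D5:**
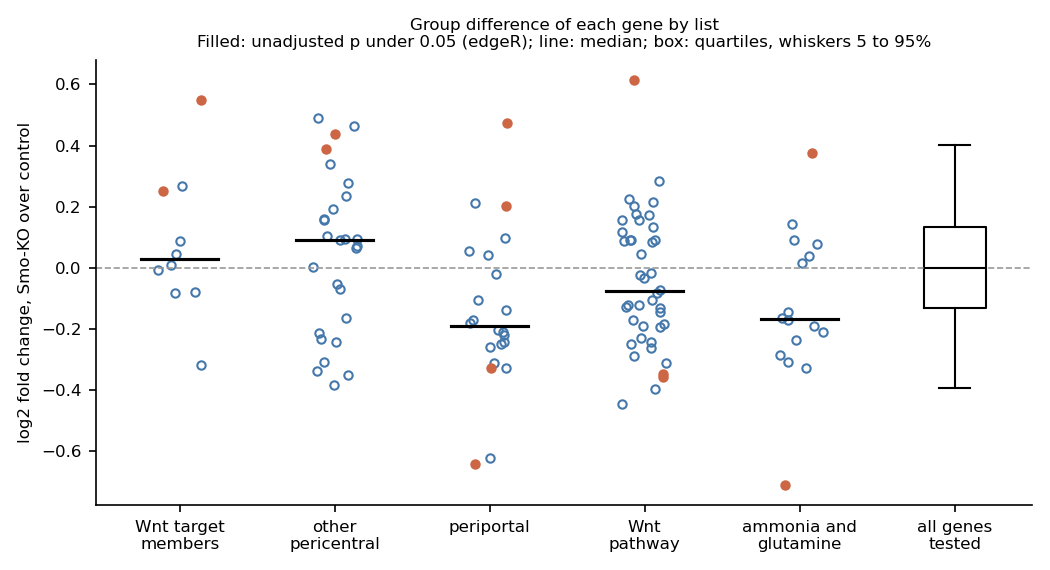
Log2 fold change of Smo-KO over control livers (vertical axis) of each tested gene in 5 lists, filled where the unadjusted p was under 0.05 in edgeR's test, with the list's median as a line, and of all 12977 genes tested as a box (quartiles, whiskers from 5% to 95%). The medians are 0.028 for the Wnt targets, 0.090 for other pericentral genes, -0.19 for periportal genes, -0.077 for the Wnt pathway and -0.17 for ammonia and glutamine genes.

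The partners of the nitrogen-handling members were a list of 20 transporters and enzymes of ammonia, glutamate, glutamine and proline, of which 16 were tested, with a median log2 fold change of -0.17. At an unadjusted p under 0.05, 1 was higher and 1 lower, beside the same 6.70% and 7.15%. Slc1a4, a neutral amino acid carrier of the same family as Slc1a2, was 29.6, 44.6, 53.1 and 44.7 CPM in the controls against 32.6, 26.5, 19.3 and 26.7 in the knockouts. The groups overlapped through control mouse 1, the one control near the Smo-KO level (-0.71, standard error 0.18, adjusted p 0.151 in edgeR's and 0.0221 in DESeq2's test). Prodh, proline dehydrogenase, was 256, 180.2, 134 and 203 CPM in the controls against 241, 274, 223 and 264 in the knockouts, with control mouse 3 lowest (0.37, adjusted p 0.316). Of those highest in CPM, Slc38a3, the glutamine carrier SNAT3, had 0.14 (adjusted p 0.656), and Glud1, glutamate dehydrogenase, -0.24 (adjusted p 0.375). The other glutamate carriers of this family that were listed, Slc1a1 and Slc1a3, were under 2 CPM in every liver and not tested. Slc1a5 and Got2, named after their values were seen, did not overlap and were lower in Smo-KO livers, beside 4.34% of all genes tested (-0.21 and -0.16, adjusted p 0.512 and 0.452).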

How the data were processed

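Total RNA of 8 livers was made into libraries with the NEB Next Ultra RNA kit and sequenced on an Illumina NovaSeq. The authors deposited 1 table of raw read counts per gene symbol for each liver. The submitters' processing notes name fastp, STAR 2.7.5, featureCounts 2.0.1 and GRCm38, while the tables end with summary entries of the type htseq-count writes. The annotation release and strand setting are not given in the sources used here, so reads of overlapping genes on opposite strands may not be told apart. Entries that name no gene were left out (those on no feature were 8.33% ± 0.743 of reads in the controls and 9.23% ± 0.330 in the knockouts, mean ± SD, n = 4, exact permutation p = 0.114). Reads on genes numbered 9177277, 9394970, 9891102 and 9999732 in control and 9543675, 9367795, 8203299 and 9445427 in Smo-KO mice 1 to 4, and 3 reads were worth 0.297 to 0.366 TMM-scaled CPM. Floors and intervals of this kind cover counting error only.

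Counts were filtered with filterByExpr, scaled by TMM and tested with the quasi-likelihood test of edgeR 4.0.16 in R 4.3.3, Smo-KO against control with no covariate, with Benjamini-Hochberg adjustment over all 12977 genes. Log2 CPM used a prior count of 2, and standard errors and 95% intervals were derived from the test's F statistic. Single sums and library measures were compared by exact two-sided permutation over 70 assignments. The code was tested on simulated data. Alternatives were DESeq2 1.42.0, its size factors, other filters, a replicate block and leaving out each mouse. That samples of a group are separate mice follows from the labels, which number them.

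Members and lists were chosen with earlier results of these data known. Named were all members and Smo, list genes at an unadjusted p under 0.05, the 2 genes of a list highest in CPM, the detected Wnt ligands and R-spondins, and the 6 genes most like the members' mean over 8 livers by Pearson r, for values and for residuals, of which 1 is not reported here. Of 177 list symbols 177 were found, 1 through a RefSeq synonym. Gene positions are from GENCODE M21 (GRCm38) and promoters from RefSeq (GRCm38.p6).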

Additional observations from a re-analysis of the deposited data

Results flagged for a closer look

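A single liver stood far from the other 3 of its group in 6 of 126 groups of 4 examined, where chance alone would give about 6.3. Of the Wnt targets these were Slc1a2 in control mouse 3, at 72.7 CPM where the other controls had 135 to 142 CPM, and Rnf43 in Smo-KO mouse 3, at 29.5 CPM where the others had 47.9 to 50.2 CPM. Of the Wnt ligands, Wnt4 (9.44 CPM, the others 6.06 to 6.63) and Wnt2 (2.52 CPM, the others 4.27 to 4.54) stood apart in control mouse 2. Of the cell markers, the cholangiocyte gene Sox9 was 13.7 CPM in Smo-KO mouse 1 (the others 8.94 to 9.76) and Cd8a 11.0 CPM in control mouse 1 (the others 9.44 to 9.54).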

How the results depend on the processing

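The count of genes at an adjusted p under 0.05 was 0 with edgeR (1797 at an unadjusted p under 0.05), 163 with DESeq2, 61 with no filter on low counts and 0 to 78 when 1 mouse was left out (78 without Smo-KO 1, 5 without control 1, 4 without Smo-KO 3). Smo had -0.87 with DESeq2 (adjusted p 0.00613), -0.88 with no filter (0.0385) and -0.997 to -0.81 when 1 mouse was left out (adjusted p 0.0266 without Smo-KO 1 and 0.0944 to 0.219 in the other 7 fits). Without 1 mouse, 1 to 3 Wnt targets were at an unadjusted p under 0.05 (1 without control 4, Slc1a2, and 1 without Smo-KO 2, Oat), and these were not always the same genes, with Slc1a2 called in 7 of the 8 fits, Rhbg in 4, Oat in 2 and Tbx3 in 2. At the same threshold were 1 to 7 other pericentral, 3 to 8 periportal (8 without control 2) and 2 to 5 Wnt pathway genes (5 without control 1 or Smo-KO 2), beside 9.50% to 17.8% of all genes tested in those fits. The pericentral count was 2 in the fit reported, 5 with DESeq2 and 7 with no filter, beside 13.8%, 12.5% and 11.4% of all genes. Log2 fold changes changed sign on leaving out 1 mouse for Glul (-0.012 to 0.20), Axin2 (-0.080 to 0.078), Rnf43 (-0.017 to 0.20), Lgr5 (-0.20 to 0.094) and Lect2 (-0.082 to 0.054). They did not for Rhbg, Tbx3, Oat and Znrf3, nor for Slc1a2 (0.37 to 0.63, adjusted p 0.131 to 0.472 over all alternatives), whose groups do not overlap, which fixes its sign. The causes were not tested.

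Mice with the same number deviated together with r of 0.10, 0.19, 0.061 and 0.11 over genes, not over 0.1 in every pair, and not every liver was closest to its own number, so the numbers were not taken as pairing. With the replicate block 8 genes passed the adjusted threshold, 4 Wnt targets (Oat, Rhbg, Slc1a2, Tbx3) and 9 other pericentral genes were at an unadjusted p under 0.05, beside 16.3% of all genes tested, and Axin2 had -0.0017. No scaling moved the median of all genes by 0.1 or more. Wnt9b had at most 15 reads in a liver, which limits what its values show.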

Other observations

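Zonal genes outside the members also followed single mice. Of 27 other pericentral genes, control mouse 1 had the highest value of its group in 14 and control mouse 3 the lowest in 15, while Smo-KO mouse 2 had the highest in 14 and Smo-KO mouse 3 the lowest in 14. Of 22 periportal genes, control mouse 1 was highest in 16, control mouse 2 lowest in 11 and Smo-KO mouse 3 lowest in 12. Control mouse 1 was thus high, and Smo-KO mouse 3 low, for many genes of both zones. These are counts within groups and were not tested.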
